A study of Mus musculus with 12 samples.

Results

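Leptin and insulin are circulating signals of fat stores and feeding that neurons of the arcuate nucleus (ARC) read. This account covers 10 genes that carry those signals into the cell, chosen by name as the core of the pathway: the receptors *Lepr*, *Insr* and *Igf1r*, the kinase *Jak2* and the transcription factor *Stat3*, the inhibitors *Socs3*, *Socs2* and *Ptpn1*, and the docking proteins *Irs1* and *Irs2*. All 10 were among the 16640 genes of the deposited table. They were measured by bulk RNA-seq of microdissected ARC from female mice at 27 weeks of age, in 12 libraries of 4 groups. Controls (labelled Ctrl) carried the floxed oestrogen receptor gene, Esr1fl/fl, with the receptor intact, and mutants (labelled NkxCre) were Esr1Nkx2-1Cre, in which the floxed gene is removed wherever the *Nkx2-1* promoter has driven Cre. *Nkx2-1* is active early in the ventral forebrain and hypothalamus as well as in thyroid, lung and posterior pituitary lineages, so the deletion was confined neither to the ARC nor to adult life. Each genotype was studied on chow (3 control and 4 mutant libraries) and after 17 weeks of high-fat diet (HFD; 2 control and 3 mutant libraries). The comparisons ask what HFD did to these genes in each genotype, and whether the genotypes differed on either diet.

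Binding of leptin to the long form of its receptor activates the bound kinase JAK2, which phosphorylates STAT3, and STAT3 then switches on *Socs3*, whose product blocks the receptor in a feedback loop. The phosphatase PTP1B, product of *Ptpn1*, removes phosphate from JAK2 and from the insulin receptor. Insulin and IGF1 receptors phosphorylate IRS1 and IRS2, which recruit PI3K and so turn on AKT and keep FOXO1 out of the nucleus. Raised SOCS3 and PTP1B in the hypothalamus are well-known features of diet-induced leptin resistance. Much of this signalling runs through phosphorylation and receptor traffic, which transcript levels do not measure.

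None of the 10 genes passed the test for an effect of HFD in either genotype, and none passed it for a difference between genotypes on either diet. The pairwise differences with an unadjusted p under 0.05 were higher *Socs2* and *Lepr* in mutants on chow (2.16 and 2.42 times the control mean), lower *Ptpn1* in mutants on HFD (62.1% of the control mean) and higher *Irs1* on HFD in controls (2.79 times the chow mean). The test was limma's moderated test on log2(value + 1), two-sided, over the 15801 genes that reached a value of 1 in at least 2 libraries, with Benjamini-Hochberg adjustment and a threshold of 0.05. All 10 genes passed that filter. The adjusted threshold was passed by 0% of all genes tested for diet in controls, 0.019% for diet in mutants, 0.019% for genotype on chow, 0.00633% for genotype on HFD, 0% for the interaction of genotype and diet and 0% for diet averaged over genotypes, so few calls were made anywhere in the table. Values below are deposited abundances without a stated unit, on a scale close to that of TPM (transcript abundance scaled for length and depth). Their read depth is unknown, and with so few libraries the intervals are wide.

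The libraries themselves varied. Columns of the table summed to between 922172 and 1254999, Spearman's correlation between libraries ran from 0.892 to 0.970, and genes listed at 0 numbered 201 to 1768, most in mutant chow replicate 3. *Esr1*, the targeted gene, was 7.29 to 19.8 in control chow and 1.65 to 6.05 in mutant chow, with no overlap. On HFD it was 15.3 and 22.4 in controls and 10.7, 16.6 and 11.9 in the libraries labelled mutant HFD, which overlapped the controls and all lay above mutant chow. Every direction that rests on the mutant HFD libraries therefore rests on the label. Summed arcuate neuron markers (8 of 8 measured) were present throughout, at 3086 to 6617 in control chow, 3544 to 7263 in mutant chow, 1802 and 5557 in control HFD and 3141 to 3776 in mutant HFD. The summed levels of neighbouring tissue moved too. Pituitary and pars tuberalis markers (5 of 6 measured) ranged from 121 to 6009, lowest in control HFD replicate 1 and highest in control chow replicate 2. Suprachiasmatic markers (5 of 5) ranged from 100 to 3085, almost wholly through *Avp*, which ranged from 77.3 to 3051. Choroid plexus markers (5 of 6) reached 2185 in control HFD replicate 1 against 28.1 to 75.2 elsewhere, through *Ttr* at 2112. The other lists, each with 5 of 5 markers measured, ranged over all libraries from 194 to 372 for tanycytes, 640 to 1255 for astrocytes, 1024 to 4848 for oligodendrocytes, 32.6 to 94.7 for endothelial and mural cells and 82.7 to 321 for leptomeningeal fibroblasts. In bulk tissue, fewer cells of a type and less RNA per cell cannot be told apart.

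The upstream sequence of 4 genes is given because it is where the pathway's own transcription factors would act: *Socs3* is the classical STAT3 feedback gene, *Irs1* and *Irs2* are docking proteins of which *Irs2* is a known FOXO1 target, and *Lepr* is the leptin receptor itself. The sequences are RefSeq promoter entries of GRCm38.p6, read 5′ to 3′ on the gene's strand, and each run stops short of any exon in the GENCODE annotation. Capitals mark TTCNNNGAA, the core of a STAT site, in *Socs3* and TGTTTTG, the core of an insulin response sequence, in *Irs1* and *Irs2*.
*Socs3* (chr11:117969452-117969616, minus strand): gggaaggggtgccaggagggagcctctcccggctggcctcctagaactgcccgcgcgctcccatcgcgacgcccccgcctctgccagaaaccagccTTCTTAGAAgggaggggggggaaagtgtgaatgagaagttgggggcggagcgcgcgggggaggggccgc
*Irs1* (chr1:82291440-82291689, minus strand): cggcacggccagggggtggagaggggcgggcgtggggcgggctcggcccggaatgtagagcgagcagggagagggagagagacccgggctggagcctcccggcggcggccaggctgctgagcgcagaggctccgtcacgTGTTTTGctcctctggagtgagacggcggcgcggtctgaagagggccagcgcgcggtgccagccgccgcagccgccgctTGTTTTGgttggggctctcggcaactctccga
*Irs2* (chr8:11008930-11009179, minus strand): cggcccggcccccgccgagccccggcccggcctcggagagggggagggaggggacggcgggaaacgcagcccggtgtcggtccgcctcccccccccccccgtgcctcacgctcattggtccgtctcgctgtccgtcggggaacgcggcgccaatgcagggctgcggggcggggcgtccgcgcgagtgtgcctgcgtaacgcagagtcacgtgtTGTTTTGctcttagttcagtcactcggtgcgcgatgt
*Lepr* (chr4:101717157-101717403, plus strand): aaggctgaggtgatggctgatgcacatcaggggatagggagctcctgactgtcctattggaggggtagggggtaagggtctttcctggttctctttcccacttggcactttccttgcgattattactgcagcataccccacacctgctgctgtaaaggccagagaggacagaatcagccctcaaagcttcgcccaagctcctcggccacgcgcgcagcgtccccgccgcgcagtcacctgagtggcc
The *Socs3* match began 154 bases before the transcription start, the *Irs1* matches at 111 and 32 bases and the *Irs2* match at 37 bases. The *Socs3* stretch lies in an intron of a longer, non-coding *Socs3* transcript, that of *Irs2* in an intron of the long non-coding RNA *9530052E02Rik* on the opposite strand, and those of *Irs1* and *Lepr* outside any annotated gene. No capital stands in the *Lepr* stretch, and a second *Lepr* start held 1 TGTTTTG match, 114 bases upstream, inside the annotated transcript and so not shown.

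Over the 250 bases before each start, 8 of the 10 genes had entries (9 starts), with none for *Socs2* or *Insr*. Searched on both strands, TTCNNNGAA was found in 1 of the 8 genes and in 7.02% of 32851 mouse promoters, TGTTTTG in 3 of the 8 genes and in 5.56% of promoters, and the FOXO core TGTTTAC in 0 of the 8 genes and in 3.17% of promoters. The search for TGTTTTG was added after the sequences had been seen. These matches describe letters in a window and no binding was measured.

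*Lepr*, which encodes the leptin receptor (chromosome 4: 101717404 to 101815352), was the receptor whose level varied most. It was 7.44, 2.59 and 2.91 in control chow, 7.55, 6.99, 14.2 and 13.1 in mutant chow, 7.02 and 2.22 in control HFD, and 3.03, 8.83 and 8.98 in mutant HFD. The highest values were those of mutant chow replicates 3 and 4, and control chow replicate 1 lay inside the mutant chow range. The means were 4.31 ± 2.72 (SD, n = 3) in control chow, 10.4 ± 3.70 (n = 4) in mutant chow, 4.62 ± 3.39 (n = 2) in control HFD and 6.94 ± 3.39 (n = 3) in mutant HFD. Placed in order, neighbouring groups differed by less than the SD of the higher one. The table gives 1 value per gene, so the long, signalling form and the short forms of the receptor were measured together.

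An effect of HFD on *Lepr* was not resolved in either genotype. In controls the log2 difference of HFD over chow was 0.05 ± 0.56 (SE; 95% interval -1.17 to 1.27; limma adjusted p = 1.00), and its sign depended on single libraries: without control HFD replicate 1 it was -0.61. In mutants it was -0.58 ± 0.47 (95% interval -1.60 to 0.44; limma adjusted p = 0.928). These intervals allow a doubling or a halving in controls, so an effect of HFD on the receptor was not detectable with these libraries, not shown to be absent.

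Between genotypes on chow, *Lepr* stood at 2.42 times the control mean in mutants, a log2 difference of 1.16 ± 0.47 (95% interval 0.14 to 2.18; unadjusted p under 0.05, limma adjusted p = 0.982), which did not pass the adjusted threshold. Markers of the neighbouring ventromedial and dorsomedial nuclei, where *Lepr* is also expressed, were all measured. The 6 summed to 37.7 to 82.5 in control chow, 104 to 189 in mutant chow, 54.5 and 141 in control HFD and 103 to 139 in mutant HFD. That separation on chow rested on *Grp*, a gene the study picked out from these libraries. Without it the other 5 summed to 80.3, 55.3 and 32.8 in control chow. In mutant chow they summed to 134, 161, 65.8 and 68.5, which overlapped. Mutant chow replicates 3 and 4, the 2 libraries with the most *Lepr*, lay inside the control range. The mean of each of the 5 was still higher in mutant chow than in control chow, from *Npvf* (1.77 against 1.63) to *Fezf1* (16.25 against 4.43). Over the 12 libraries, Spearman's rho with *Lepr* was 0.48 for the 6 summed markers, 0.54 for astrocyte markers and -0.56 for endothelial and mural markers. The part of any of these markers in the *Lepr* difference was not tested. Without control chow replicate 2 or 3, or mutant chow replicate 3 or 4, the *Lepr* difference was 0.94 to 1.04 and no longer under 0.05 before adjustment.

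*Insr*, the insulin receptor (chromosome 8: 3122061 to 3279617), was the steadiest gene of the set. It was 9.90, 7.89 and 11.8 in control chow, 9.49, 9.57, 7.65 and 7.84 in mutant chow, 10.7 and 8.84 in control HFD, and 8.34, 10.3 and 8.73 in mutant HFD, and every group overlapped every other. Its coefficient of variation over the 12 libraries was 13.8%, against 55.8% for *Lepr*. HFD over chow gave a log2 difference of 0.00 ± 0.28 in controls (95% interval -0.61 to 0.61; limma adjusted p = 1.00) and 0.07 ± 0.24 in mutants (95% interval -0.44 to 0.58; limma adjusted p = 0.980). A doubling or halving of the insulin receptor transcript thus lay outside both intervals. *Igf1r*, which binds insulin-like growth factor 1 (chromosome 7: 67952827 to 68233668), was 9.13, 5.34 and 11.6 in control chow, 6.91, 8.05, 5.52 and 8.25 in mutant chow, 11.4 and 7.42 in control HFD, and 6.85, 13.6 and 9.06 in mutant HFD. Its groups overlapped as well, and its largest log2 difference in the 4 pairwise comparisons was 0.37 ± 0.32, for HFD in mutants (limma adjusted p = 0.938).

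**Figure D1:**
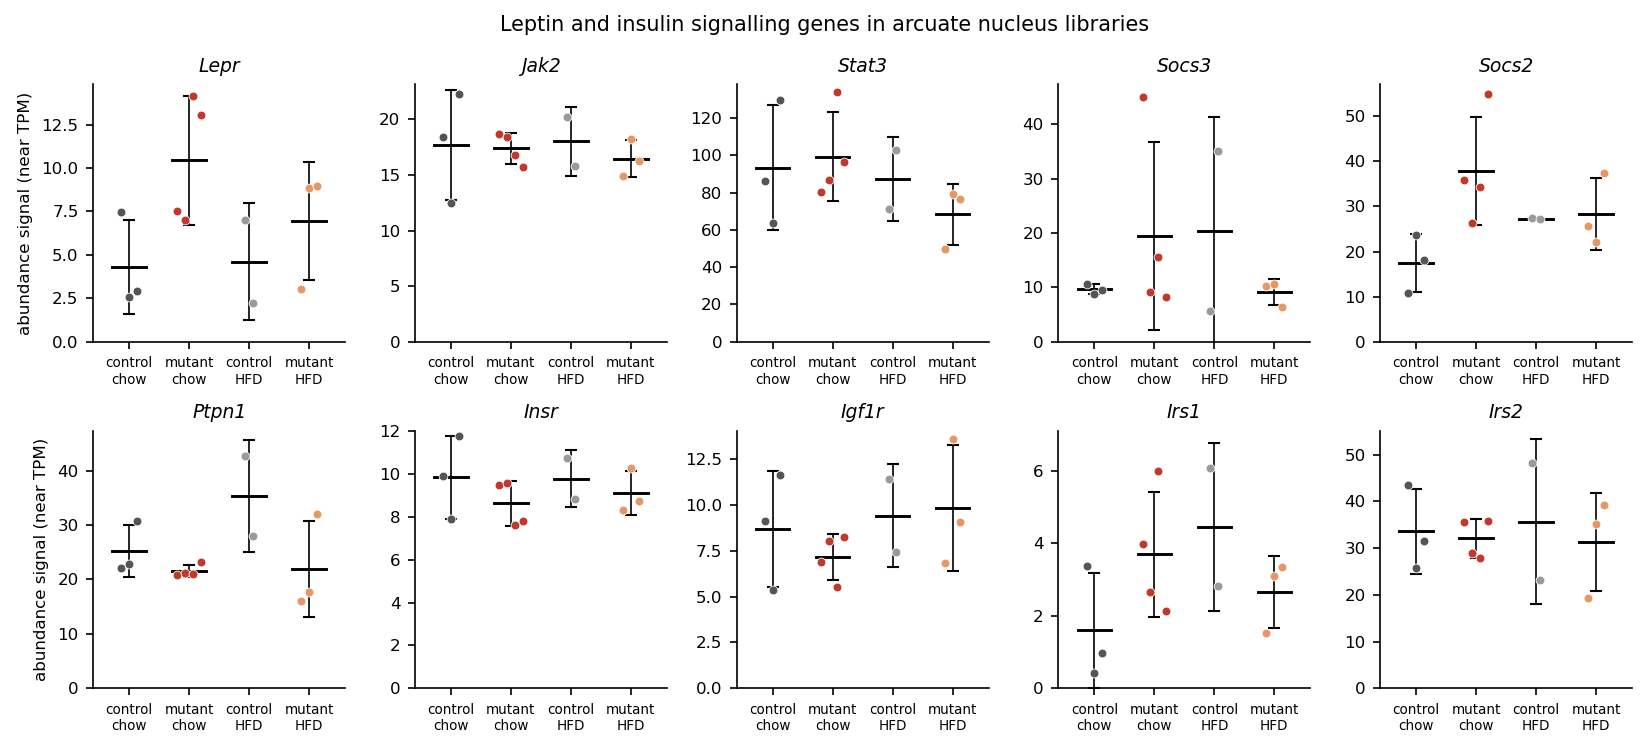
Deposited abundance of each of the 10 genes in every library, by group (control chow, mutant chow, control HFD, mutant HFD), on linear axes that start at 0. Points are libraries, horizontal lines are group means with SD bars, and SD bars that would cross 0 are drawn to 0. *Lepr*, *Socs2*, *Socs3* and *Irs1* spread widely, with single high *Socs3* libraries at 45.0 and 35.2, while *Insr* and *Jak2* sit in narrow bands.

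Downstream of the leptin receptor, *Jak2*, the kinase that starts the cascade (chromosome 19: 29251828 to 29313080), was 18.4, 12.5 and 22.3 in control chow, 18.7, 18.4, 16.8 and 15.7 in mutant chow, 20.2 and 15.8 in control HFD and 14.9, 18.2 and 16.3 in mutant HFD. Its coefficient of variation was 14.9%, the groups overlapped, and its log2 differences in the 4 pairwise comparisons lay between -0.12 and 0.05. *Stat3*, the transcription factor that JAK2 activates (chromosome 11: 100885098 to 100939540), was 86.3, 63.8 and 129.8 in control chow, 80.5, 86.6, 133.7 and 96.1 in mutant chow, 71.4 and 103.0 in control HFD and 49.6, 79.0 and 76.6 in mutant HFD. All 3 mutant HFD values lay under all 4 mutant chow values, with the HFD mean at 68.9% of the chow mean. The log2 difference was -0.53 ± 0.27 (95% interval -1.11 to 0.05; limma adjusted p = 0.916). Groups that did not overlap were found for 7.99% of all genes in this comparison, and *Stat3* was 1 of 10 here. In controls the *Stat3* difference between diets was -0.06 ± 0.32.

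Among the inhibitors, *Socs3*, the STAT3-induced brake on the leptin receptor (chromosome 11: 117966079 to 117970047), was set apart by single libraries. It was 10.6, 8.80 and 9.55 in control chow, 45.0, 9.16, 15.5 and 8.23 in mutant chow, 5.60 and 35.2 in control HFD, and 10.3, 10.6 and 6.38 in mutant HFD. Mutant chow replicate 1 and control HFD replicate 2 stood far above every other library, and the other 10 libraries ran from 5.60 to 15.5. Its coefficient of variation, 84.7%, was the largest of the set. The log2 difference of HFD over chow was 0.54 ± 0.71 in controls (95% interval -0.9994 to 2.08; limma adjusted p = 0.998) and -0.72 ± 0.59 in mutants (95% interval -2.01 to 0.56; limma adjusted p = 0.930). The intervals take in a doubling in controls and more than a halving in mutants, so these libraries do not settle whether the feedback gene responded to the diet.

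*Ptpn1*, which encodes the phosphatase PTP1B (chromosome 2: 167932057 to 167979385), was 22.1, 22.9 and 30.7 in control chow, 20.9, 21.2, 21.1 and 23.3 in mutant chow, 42.6 and 28.1 in control HFD and 16.1, 17.8 and 32.0 in mutant HFD. Control HFD replicate 1 held the highest value. On HFD the mutant mean was 62.1% of the control mean, a log2 difference of -0.70 ± 0.30 (95% interval -1.35 to -0.05; unadjusted p under 0.05, limma adjusted p = 1.00), with mutant HFD replicate 3 above the lower control. Without control HFD replicate 1, the library with the choroid plexus transcripts, the difference was -0.41 and no longer under 0.05 before adjustment. Whether that tissue plays a part was not tested. *Ptpn1* on HFD over chow was 0.46 ± 0.30 in controls and -0.04 ± 0.25 in mutants (limma adjusted p = 0.998 and 0.993).

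*Socs2*, a STAT5-induced inhibitor best known for restraining growth hormone signalling (chromosome 10: 95385362 to 95417180), gave the clearest separation in the set. It was 10.8, 23.7 and 18.03 in control chow and 35.8, 26.4, 34.4 and 54.8 in mutant chow, so that every mutant library lay above every control library. On HFD it was 27.4 and 27.2 in controls and 25.7, 22.04 and 37.4 in mutants, which overlapped. On chow the mutant mean was 2.16 times that of controls, 37.8 ± 12.1 (SD, n = 4) against 17.5 ± 6.42 (n = 3). The log2 difference was 1.08 ± 0.30 (95% interval 0.44 to 1.73; unadjusted p under 0.05, limma adjusted p = 0.905), which did not pass after adjustment. Groups on chow did not overlap between genotypes for 4.51% of all genes, and *Socs2* was the only 1 of the 10. On HFD the same difference was 0.02 ± 0.35. The interaction, the genotype difference on HFD less that on chow, was -1.07 ± 0.46 (unadjusted p under 0.05, limma adjusted p = 0.999). Between diets, the control mean was 17.5 on chow and 27.3 on HFD, a log2 difference of 0.68, without overlap, as for 14.1% of all genes. The mutant mean was 37.8 on chow and 28.4 on HFD, with overlap. Neither diet difference passed the adjusted threshold.

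The summed microglial markers ran beside *Socs2*. The 5 markers of microglia summed to 164 to 270 in control chow and 288 to 331 in mutant chow, then to 175 and 211 in control HFD and 174 to 207 in mutant HFD, and Spearman's rho between that sum and *Socs2* was 0.608 over the 12 libraries, which share their depth and dissection. Taken singly, *Csf1r* and *Tmem119* were higher in every mutant chow library than in any other library, while *C1qa*, *Cx3cr1* and *P2ry12* overlapped the other groups. *P2ry12* was 12.6 in mutant chow replicate 1 and 44.1 in mutant HFD replicate 3. The part of microglia in the *Socs2* difference was not tested.

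*Irs1* and *Irs2* dock the insulin and IGF1 receptors to PI3K. *Irs1* (chromosome 1: 82233101 to 82291416) was the lowest-valued gene, at 3.39, 0.416 and 0.989 in control chow, 3.98, 2.67, 6.0 and 2.14 in mutant chow, 6.09 and 2.83 in control HFD and 1.53, 3.10 and 3.36 in mutant HFD. Only the 2 low control chow libraries were under 1, and control chow replicate 1 lay inside the range of the other groups. HFD over chow in controls gave a ratio of means of 2.79 and a log2 difference of 1.17 ± 0.54 (95% interval 0.00 to 2.34; unadjusted p under 0.05, limma adjusted p = 0.998). That value rested on few libraries: without control HFD replicate 1 it was 0.73 and without control chow replicate 2 it was 0.82, neither of which stayed under 0.05 before adjustment. Between genotypes on chow, a comparison that holds the same 2 low control libraries, *Irs1* in mutants was 2.31 times the control mean, 3.70 against 1.60, a log2 difference of 0.95 ± 0.45 (95% interval -0.03 to 1.93; limma adjusted p = 0.982). HFD over chow in mutants was -0.33 ± 0.45 (limma adjusted p = 0.958), and the interaction was -1.50 ± 0.70 (limma adjusted p = 0.999). *Irs2* (chromosome 8: 10984681 to 11008458) was 43.6, 25.8 and 31.4 in control chow, 35.6, 28.9, 27.9 and 35.8 in mutant chow, 48.1 and 23.2 in control HFD and 19.4, 35.2 and 39.2 in mutant HFD. Its 4 group means lay between 31.2 and 35.7, and its log2 differences in the 4 pairwise comparisons between -0.16 and 0.03.

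Counted as a set, the 10 genes gave the following. For diet in controls, 1 of 10 had an unadjusted limma p under 0.05 (*Irs1*) against 3.54% of all genes, 1 of 10 had groups that did not overlap (*Socs2*, higher on HFD) against 14.1%, and the median log2 difference was 0.09 against -0.01 over all genes, with 9 of 10 differences above 0. For diet in mutants, 0 of 10 had such a p against 5.37% of all genes, and the median was -0.21 against -0.02, with 8 of 10 differences below 0. For genotype on chow, 2 of 10 had an unadjusted p under 0.05 (*Socs2* and *Lepr*) against 4.34%, with a median of 0.06 against 0.01. For genotype on HFD, 1 of 10 had one (*Ptpn1*) against 2.21%, 0 of 10 had groups that did not overlap against 15.7%, and the median was -0.14 against -0.01. For the interaction, 1 of 10 had one (*Socs2*) against 3.44%, and the median was -0.49 against -0.03 over all genes, with 8 of 10 values below 0. The interaction is the diet difference in mutants less that in controls, so it shares its libraries with both. Averaged over genotypes, the 10 diet differences lay between -0.30 and 0.42. Rescaling every column to the same sum moved the median of all genes for diet in controls from -0.01 to 0.12, so differences of that size in controls depend on the scaling.

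**Figure D2:**
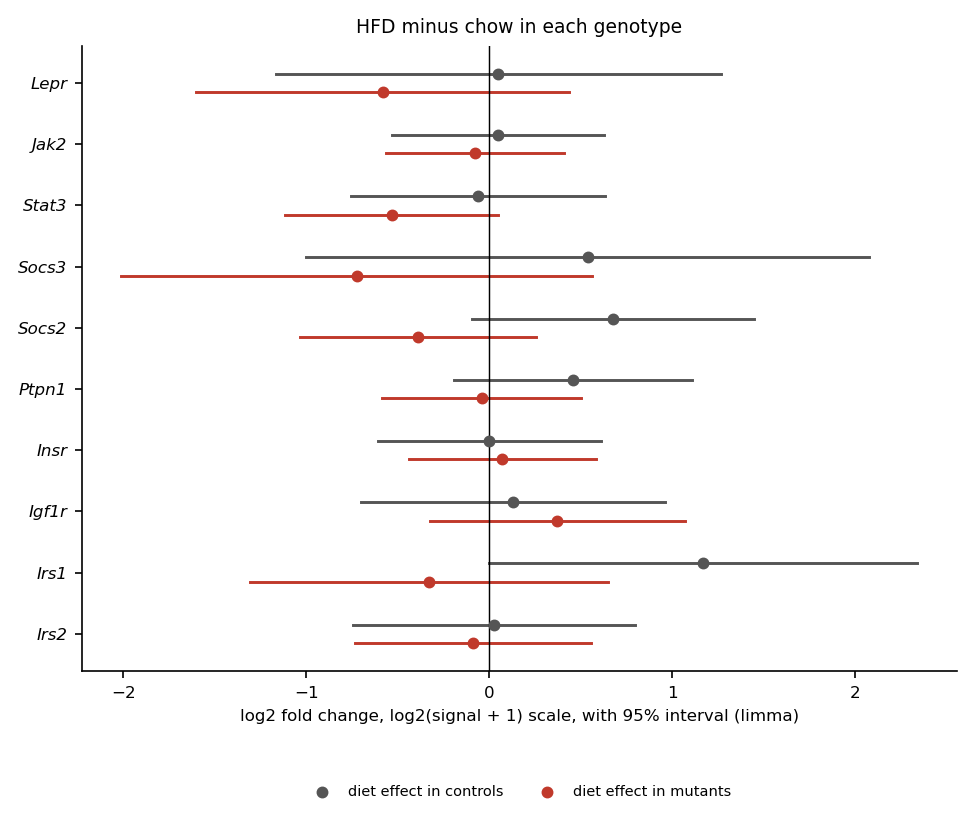
Log2 difference of HFD over chow with its 95% interval (limma) for each of the 10 genes, in controls and in mutants. Every interval but that of *Irs1* in controls (0.00 to 2.34) takes in 0, and those of *Socs3* are the widest.

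**Figure D3:**
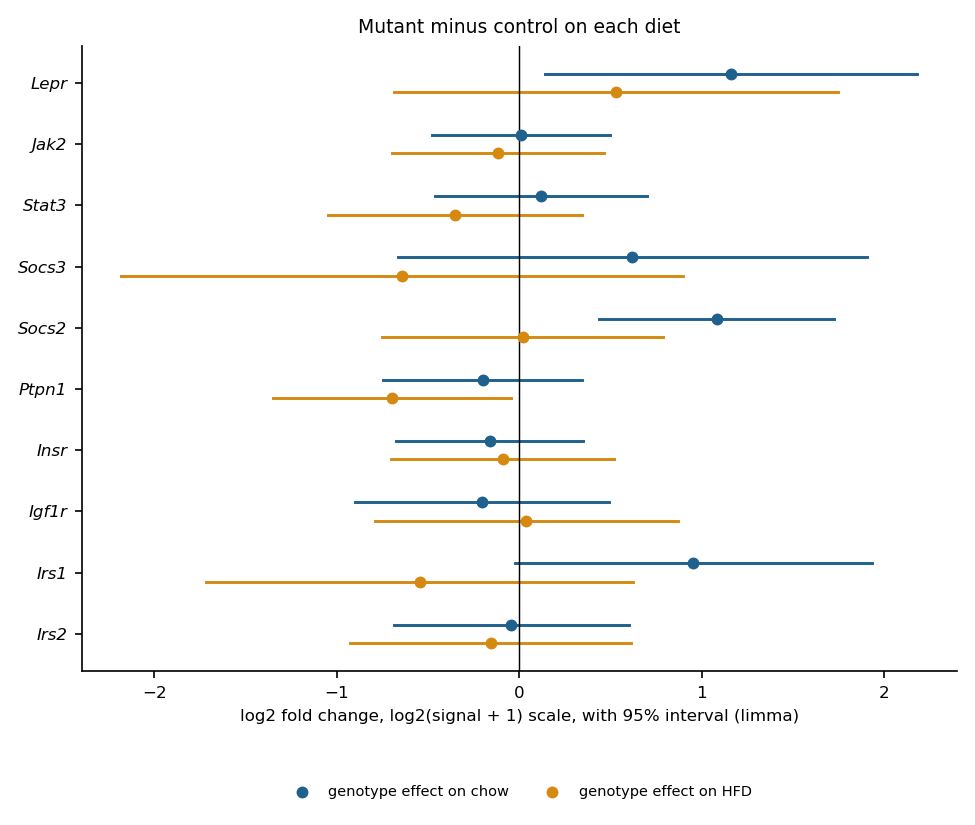
Log2 difference of mutant over control with its 95% interval (limma) for each of the 10 genes, on chow and on HFD. *Socs2* and *Lepr* lie above 0 on chow, at 1.08 and 1.16, and *Ptpn1* lies below 0 on HFD, at -0.70. None passed after adjustment.

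The wider pathway was taken from 6 lists of 78 other genes, of which 77 were measured and tested (*Ins2* had no row). Counted over all genes tested, 0 of 77 passed the adjusted threshold of limma in any comparison. At an unadjusted p under 0.05, diet in mutants had 8 of 77 genes lower on HFD and 0 higher, against 5.37% of all genes in either direction. That share was not split by direction, so the lean to lower values cannot be set against all genes. The lists were also chosen with earlier results of these data known. Diet in controls had 1 of 77 (lower) against 3.54% of all genes, genotype on chow 2 (both higher in mutants) against 4.34% and genotype on HFD 2 (both lower in mutants) against 2.21%. Groups did not overlap for 8 of 77 genes for diet in mutants, near the 7.99% of all genes, and for 6 of 77 for diet in controls, under the 14.1% of all genes.

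Among 17 JAK-STAT partners, 1 was lower on HFD in mutants at that level. *Cish*, like *Socs2* a STAT5-induced feedback inhibitor, was 17.6, 10.9, 26.1 and 15.5 in mutant chow. In mutant HFD it was 5.95, 1.72 and 5.38, with a mean at 24.8% of chow. It was named for its unadjusted p and for groups that did not overlap, as for 7.99% of all genes. In controls it was 3.75, 11.1 and 10.01 on chow and 16.3 and 9.13 on HFD. The log2 difference between diets was -1.84 ± 0.44 in mutants (unadjusted p under 0.05, limma adjusted p = 0.564) and 0.62 ± 0.53 in controls (limma adjusted p = 0.998), and the interaction was -2.47 ± 0.69 (unadjusted p under 0.05, limma adjusted p = 0.999). Between genotypes, *Cish* was higher in mutants on chow (1.05) and lower on HFD (-1.42). Both had an unadjusted limma p under 0.05 and neither passed after adjustment. The chow difference stayed under 0.05 in 15 of 20 alternative analyses.

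Of 10 insulin and IGF ligands, other receptors and binding proteins, 3 had an unadjusted p under 0.05 for diet in mutants, against 5.37% of all genes. All were lower, and the list's median log2 difference was -0.58 against -0.02 over all genes. The 2 named here, *Igf1* and *Igfbp3*, were those whose groups did not overlap, as for 7.99% of all genes. *Igf1*, the growth factor that signals through *Igf1r*, was 0.351, 1.95 and 0.538 in control chow, 11.2, 3.79, 10.4 and 6.19 in mutant chow, 1.99 and 1.55 in control HFD and 1.41, 0.534 and 0.225 in mutant HFD. Every mutant chow library lay above all 8 others. The mutant mean was 8.35 times the control mean on chow (log2 difference 2.19 ± 0.43; unadjusted p under 0.05, limma adjusted p = 0.508), and the mutant HFD mean was 9.14% of the mutant chow mean (log2 difference -2.33 ± 0.43; unadjusted p under 0.05, limma adjusted p = 0.251). These differences are on the log2(value + 1) scale, which understates change at low values. Microglia, whose summed markers were highest in the same 4 libraries, are a known source of *Igf1*, and their part was not tested. *Igfbp3*, a carrier of IGF1 in the circulation, was 49.5, 58.6, 47.6 and 66.4 in mutant chow and 34.4, 32.3 and 26.5 in mutant HFD (log2 difference -0.81 ± 0.32; unadjusted p under 0.05, limma adjusted p = 0.886).

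Of 8 STAT3 target genes, *Osmr*, the oncostatin M receptor, and *Cebpd*, a transcription factor of the acute-phase response, were lower on HFD in mutants. Their log2 differences were -1.05 ± 0.42 and -0.64 ± 0.29 (limma adjusted p = 0.886 and 0.916, unadjusted both under 0.05). Both were named for that unadjusted p and for groups that did not overlap, as for 7.99% of all genes. *Osmr* was also lower on HFD in controls, at 0.855 and 0.833 against 1.65, 2.56 and 3.56 (-0.93 ± 0.50; limma adjusted p = 0.998). Those groups did not overlap, as for 14.1% of all genes. Over both genotypes the *Osmr* difference was -0.99 ± 0.33 (limma adjusted p = 0.823). *Osmr* reached 8.64 in mutant chow replicate 3 and at most 3.29 in the other mutant chow libraries, and without replicate 3 its difference was -0.67 and no longer under 0.05 before adjustment. *Cebpd* stayed under 0.05 before adjustment in 6 of 20 alternative analyses. *Bcl6*, a transcriptional repressor, was 30.7, 24.3 and 28.02 in control chow and 23.4 and 12.1 in control HFD (-0.67 ± 0.29; unadjusted p under 0.05, limma adjusted p = 0.998), a difference that was -0.22 without control HFD replicate 2. The 2 highest libraries of *Socs3*, the gene that STAT3 is best known to induce, fell in 2 different groups, mutant chow and control HFD. In the PI3K-AKT-FOXO-mTOR list of 28 genes, 1 had an unadjusted p under 0.05 in a diet comparison and its groups overlapped, and the medians were 0.07 in controls and 0.03 in mutants. Of 10 FOXO target genes 0 had one, with medians of -0.20 and -0.05.

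**Figure D4:**
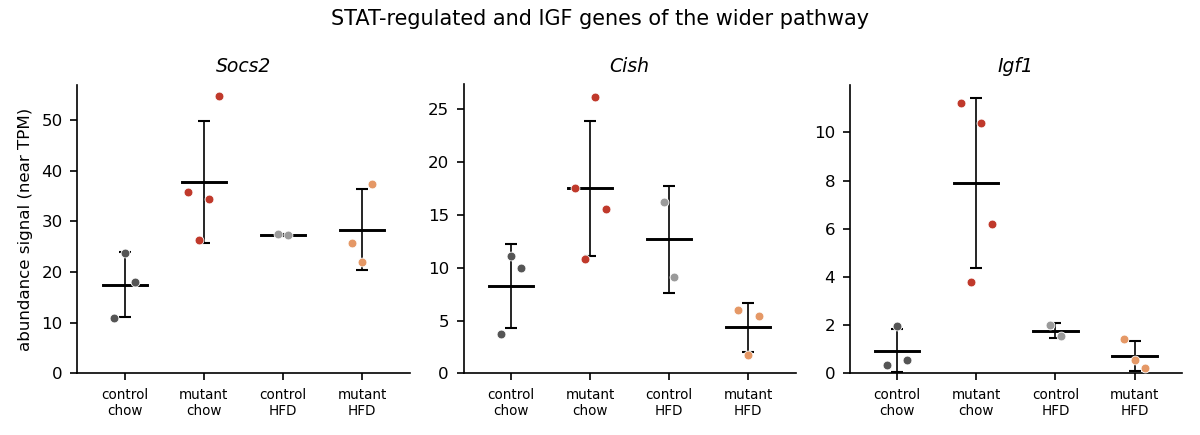
Deposited abundance of *Socs2*, *Cish* and *Igf1* in every library, by group, on linear axes that start at 0, with points for libraries and horizontal lines with SD bars for group means. The mean of each gene is highest in mutant chow, with *Igf1* at 3.79 to 11.2 there and at most 1.99 elsewhere.

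**Figure D5:**
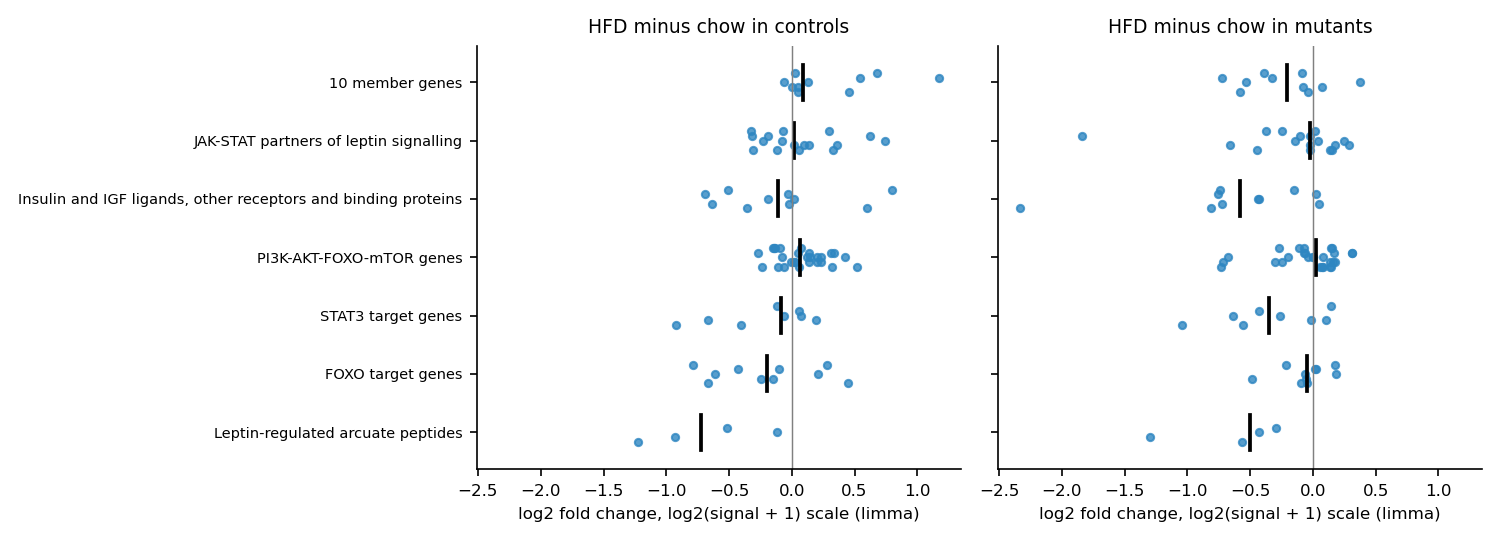
Log2 difference of HFD over chow for every tested gene of the 10 and of the 6 pathway lists, in controls and in mutants, with the median of each list. The 4 arcuate peptides lie below 0 in both genotypes, and *Igf1* and *Cish* lie lowest in mutants, at -2.33 and -1.84.

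The 4 arcuate peptides by which leptin is known to act on feeding had differences below 0 on HFD in both genotypes. Their medians were -0.72 in controls and -0.50 in mutants, against -0.01 and -0.02 over all genes. Leptin lowers *Agrp* and *Npy*, which drive feeding, and raises *Pomc* and *Cartpt*, which restrain it. *Agrp* was 168 to 788 in control chow, 236 to 446 in mutant chow, 65.9 and 366 in control HFD and 115 to 385 in mutant HFD. *Npy* was 607.5 to 2183 in control chow, 802 to 1479 in mutant chow, 227 and 1315 in control HFD and 285 to 924 in mutant HFD. *Pomc* was 1211 to 2410 in control chow, 1009 to 4249 in mutant chow, 1096 and 2645 in control HFD and 1555 to 1676 in mutant HFD. *Cartpt* was 604 to 1374 in control chow, 737 to 1085 in mutant chow, 376 and 972 in control HFD and 669 to 843 in mutant HFD. All 4 overlapped between diets in both genotypes, and 1 had an unadjusted p under 0.05, *Npy* in mutants (-1.30 ± 0.59; limma adjusted p = 0.916), which stayed under 0.05 in 11 of 20 alternative analyses. All 4 peptides were lower in control HFD replicate 1 than in any other control library, where the summed arcuate markers, which include 3 of them, were also at their lowest, 1802.

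Across the 12 libraries, the pairs of the set that ran most alike were *Jak2* with *Insr* (Spearman's rho 0.797) and *Insr* with *Igf1r* (0.790). *Insr* and *Igf1r* ran against the summed arcuate neuron markers (-0.818 and -0.769), as *Socs3* did against those of oligodendrocytes (-0.720), and *Irs2* ran with those of astrocytes (0.713). Much of the arcuate sum was *Pomc*, at 1009 to 4249 over the libraries, and *Npy*, at 227 to 2183, which leptin regulates. Among 12146 genes with a mean of at least 5, the 3 most like *Lepr* were *Bach1* (0.937), *Nop58* (0.902) and *Tatdn2* (0.895), and the 3 most like *Insr* were *Bloc1s5* (0.923), *Gm21811* (0.909) and *Cand1* (0.902). Those most like *Socs3* were *Ndst4* (0.916), *Gpc1* (0.881) and *Wsb1* (0.881). These are descriptions over libraries that share dissection and depth, and the highest of so many correlations over 12 points can be high without any relation.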

How the data were processed

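Total RNA from microdissected ARC was made into libraries with the NEBNext Ultra II kit and sequenced for the authors by a commercial service. The deposited table holds 1 abundance signal per gene and library, which the authors made with kallisto, run in gene mode against mm10 transcripts, and tested with sleuth. Versions, annotation release, strand setting and scaling between libraries are not given in the sources used here. The signal is not a count, so read depth is unknown and no counting interval or count model applies.

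Groups came from the genotype and diet labels. Libraries are labelled as separate samples, and nothing used here says more of the animals, so p-values measure the spread between these libraries. Gene identifiers were matched to symbols through GENCODE M21 (GRCm38), 16633 of 16640. limma 3.58.1 in R 4.3.3 fitted 1 mean per group over all 12 libraries, with a mean-variance trend, on log2(value + 1) after a filter of at least 1 in at least 2 libraries, and the script was tested on simulated data. Replicate numbers follow deposit order and pair nothing.

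The members, the 6 pathway lists and the 11 marker lists were chosen with earlier results of these data known, and 1 gene of the pathway lists is not reported here and left out of their counts. Named beside the members were, per pathway list, up to 3 genes with an unadjusted p under 0.05 for diet and no overlap, the 4 arcuate peptides and, for *Lepr*, *Insr* and *Socs3*, the 3 most similar genes. *Igf1* and *Cish* were then followed into the genotype comparisons. Alternatives were another filter, pseudocount, scaling or limma setting, only the groups compared, and each library left out in turn.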

Additional observations from a re-analysis of the deposited data

Results flagged for a closer look

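For 3 genes the genotype difference on HFD was apart from that on chow at an unadjusted p under 0.05 in the limma interaction test. Each had an adjusted p of 0.999. The 16 genes checked were the members and the pathway genes named for an unadjusted p under 0.05 for diet without overlap. *Cish* and *Igf1* came in through their diet difference in mutants, which is part of the interaction. The count of 3 therefore cannot be set against the 3.44% of all genes with such an interaction p. The interaction was -1.07 (log2) for *Socs2*, -2.47 for *Cish* and -2.93 for *Igf1*. *Socs2* and *Cish* are both STAT5-induced inhibitors and *Igf1* is a classical growth hormone target. A part of STAT5 or growth hormone in these differences was not tested. In all 3 genes the mutant mean lay above the control mean on chow. On HFD the mutant mean lay below the control mean for *Cish* and *Igf1* and close to it for *Socs2*. For *Socs2* the control mean was higher on HFD than on chow, and the mutant mean lower.

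*Ptpn1* in mutant chow replicate 4, at 23.3, stood away from the other 3 libraries of its group, at 20.9 to 21.2, by 0.864 of the group's range. Chance alone marks about 1 in 20 groups in this way, and 16 were checked.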

How the results depend on the processing

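Over 20 alternatives, the count of members and of other pathway genes past the adjusted threshold was 0 in 236 of 236 values, the other pathway genes under the interaction having been added after the data were seen. Of 452 values for 23 named gene differences, 443 kept their direction and side of the threshold, and 9 changed direction, all in differences near 0. For *Lepr* in controls between diets the value was -0.0634 with array weights, -0.18 without control chow replicate 2, -0.11 without control chow replicate 3 and -0.61 without control HFD replicate 1 (range over libraries left out -0.61 to 0.71). For *Insr* it was -0.0049 after quantile normalisation, -0.0598 with array weights, -0.14 without control chow replicate 2 and -0.13 without control HFD replicate 1 in controls (range -0.14 to 0.13), and -0.0095 without mutant HFD replicate 2 in mutants (range -0.0095 to 0.13). The cause was not tested.

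An unadjusted limma p under 0.05 was kept by *Socs2* on chow in 20 of 20 alternatives (0.79 to 1.32), *Lepr* on chow in 15 of 20 (0.91 to 1.55), *Ptpn1* on HFD in 16 of 20 (-0.99 to -0.41), *Irs1* between diets in controls in 7 of 19 (0.73 to 1.77) and the *Socs2* interaction in 11 of 19 (-1.30 to -0.77). For diet in mutants, *Cish* kept it in 20 of 20, and *Igf1* in 19 of 19, with a lowest adjusted p of 0.0790. Over all genes, diet in mutants gave 3 calls, 9 with array weights and 0 with only the groups compared or without mutant HFD replicate 2 or 3. Genotype on chow gave 3 calls and 1 to 4 under the alternatives, genotype on HFD 1 and 1 to 3, and the interaction 0, with 1 at a pseudocount of 0.1 or without control chow replicate 3. Fits that leave out a control HFD library leave 1 there, which is assumed to vary like the other groups. *Irs1*, *Igf1* and *Osmr* could not be tested under the filter on a mean of at least 5, nor the interaction or the averaged diet difference with only the groups compared. Read depth is unknown, so what it limits cannot be stated.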
